A study of Mus musculus with 12 samples.

Results

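Kidney cortex of wild-type (WT) mice given INT-747 was compared with that of WT mice given nicotinamide riboside (NR), over every gene measured. The comparison takes the 6 libraries labelled WT, 3 for each agent, of 12 libraries in all. The other 6 come from Tg26 mice, which carry an HIV-1 transgene and serve as a model of HIV-associated nephropathy, under the same 2 agents. The mRNA of outer cortex tissue was measured at 12 weeks of age, and every mouse labelled WT had received an agent. No untreated or vehicle group was analysed here, so a difference is one between INT-747 and NR and cannot be ascribed to either. The labels state no strain, sex, dose, route, treatment length or hour of collection, nor whether the mice of a group shared a litter or cage.

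INT-747, or obeticholic acid, is a semisynthetic bile acid that activates the farnesoid X receptor (FXR, gene Nr1h4), a nuclear receptor which in liver induces the repressor Nr0b2, lowers bile acid synthesis and alters lipid metabolism. NR is a form of vitamin B3 that nicotinamide riboside kinases, such as Nmrk1, turn into nicotinamide mononucleotide and so into NAD, the cofactor of fatty acid oxidation and the substrate of sirtuins. The proximal tubule, the main cell mass of the cortex, lives largely on fatty acid oxidation, and FXR is expressed there.

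Total counts were 22286343 to 27255336 per library under INT-747 and 23035649 to 26300729 under NR. Levels below are counts-per-million (CPM) on totals scaled by TMM, 1 value per mouse, in the order of replicates 1, 2 and 3, which are names and carry no order. All 6 WT libraries had the Xist and Y-linked pattern of males. NR replicate 1 stood apart in its clock genes: Dbp, an output of the circadian clock, read 58.8, 9.82 and 5.33 CPM under NR and 10.5, 6.1 and 8.83 CPM under INT-747, and Arntl, of opposite phase, 4.3, 23.7 and 29.5 CPM and 17.9, 28.4 and 22.1 CPM. The clock score, which subtracts the mean log2 CPM of 4 opposite-phase genes from that of 10 output and repressor genes, was 3.25 in that mouse and -0.61 to 0.66 in the other 5 WT mice. Without that mouse the same 2 genes passed the test described next, and 6 passed once each library's clock score entered the fit. Values from Tg26 mice given for comparison include 1 mouse, NR replicate 3, with the female pattern (Xist at 5816 counts).

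**Figure D1:**
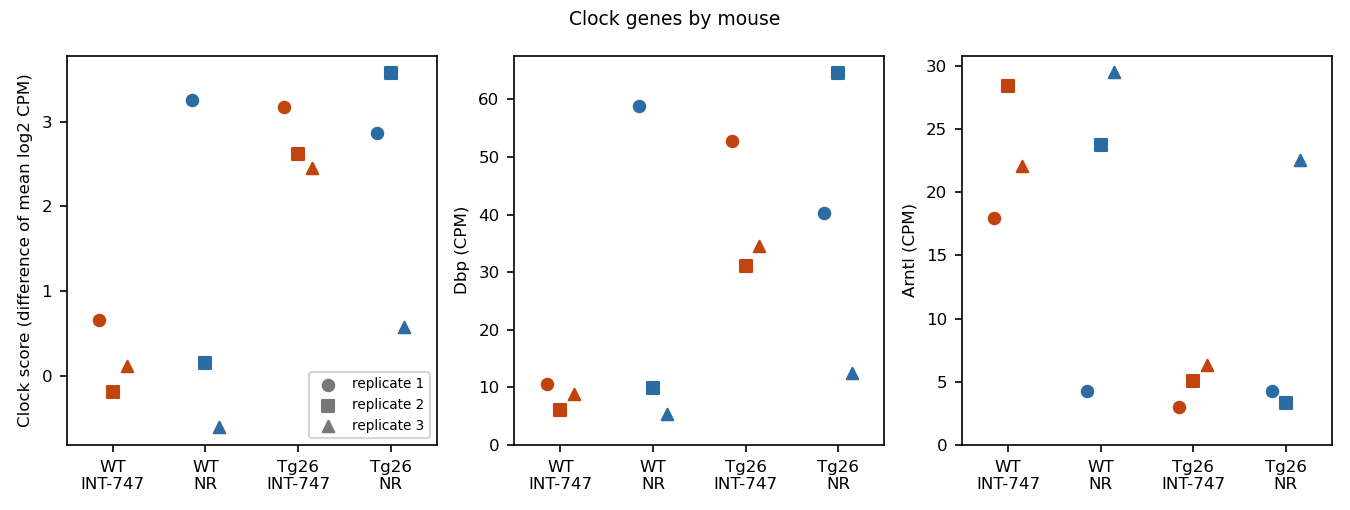
Clock score (difference of mean log2 CPM) and the CPM of Dbp and Arntl, 1 point per mouse in each of the 4 groups, with the marker giving the replicate. NR replicate 1 is the WT mouse at a score of 3.25, away from the other 5 WT mice at -0.61 to 0.66.

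Very few genes passed the test between the agents in WT cortex. Of 15708 genes tested with edgeR's quasi-likelihood test and Benjamini-Hochberg adjustment, 2 passed an adjusted p of 0.05, which is 0.0127%, 1 on either side (0.00637% each): Akr1c18 rose and Rpl3-ps1 fell under INT-747 relative to NR. At an unadjusted p under 0.05 there were 418 genes on the higher side (2.66%) and 369 on the lower side (2.35%) and 5.01% together. The 3 INT-747 mice and the 3 NR mice did not overlap for 2021 genes, 12.9% of those tested. The median log2 fold change over all genes, INT-747 minus NR, was -0.01. In Tg26 mice the same contrast, from other libraries, gave 688 genes, or 4.38%. A difference in response between WT and Tg26 was tested as an interaction, and 0 genes passed (0%), with 2428 (15.5%) at an unadjusted p under 0.05. DESeq2 gave 61 genes in WT and 247 for the interaction, and limma-voom gave 2 and 0.

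Akr1c18 encodes an aldo-keto reductase that inactivates progesterone as a 20-alpha-hydroxysteroid dehydrogenase. Its level was 61.5, 60.7 and 54.6 CPM under INT-747 and 30.3, 22.8 and 25 CPM under NR, so that the lowest INT-747 mouse stood well above the highest NR mouse. The means were 58.9 ± 3.79 and 26.1 ± 3.81 CPM (SD, n = 3 and 3). The log2 fold change was 1.18 ± 0.12 (SE), with an adjusted p of 0.00293 in edgeR. In Tg26 mice the gene stood at 58.7, 68.5 and 64.5 CPM under INT-747 and 36.9, 42.2 and 45.2 CPM under NR, and there too it rose, by 0.63 ± 0.11 (edgeR adjusted p of 0.0287). The 2 responses differed by 0.55 ± 0.16, which did not pass the interaction test (edgeR adjusted p of 0.247).

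The gene lies at chr13:4132615-4150654 (mm10, GENCODE release 21), in a cluster of Akr1c genes whose reads could in principle be shared. The coding sequences of 8 other Akr1c genes were 74.4% to 78.7% identical to its own. Of the 6 family members tested, 4 had a positive and 2 a negative log2 fold change. Akr1c21, a hydroxysteroid dehydrogenase of mouse kidney, read 332, 286 and 322 CPM under INT-747 and 258, 198 and 154 CPM under NR. The groups did not overlap, but its log2 fold change of 0.62 ± 0.48 lay far from the threshold (edgeR adjusted p of 1). Akr1c12, Akr1c13, Akr1c14 and Akr1c19 overlapped between the groups.

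Rpl3-ps1 is a processed pseudogene of Rpl3, the gene for a protein of the large ribosomal subunit. Its counts were 86.9, 97.1 and 87.9 CPM under INT-747 and 173, 197 and 174 CPM under NR, a log2 fold change of -1.0 ± 0.09 with an adjusted p of 0.00293 in edgeR. The parent gene stood on the other side: Rpl3 read 277, 288 and 255 CPM under INT-747 and 184, 212 and 185 CPM under NR, with a log2 fold change of 0.50 ± 0.09 that did not pass (edgeR adjusted p of 0.156). The pseudogene lies at chrX:13202571-13203780 and the parent at chr15:80077791-80091868 (both mm10). Over 1209 aligned bases of the Rpl3 coding sequence the 2 genes differ at 2 positions, 99.83% identity, so the authors' counting could split reads between them on very little sequence. The positions, counted from 1 at the first base of the Rpl3 start codon, are C57A and T786C, Rpl3's base first. The stretches around them, from the GENCODE transcripts of mm10 in the sense direction, are shown because reads that do not cross either position cannot tell the copies apart by coding sequence; the capital marks the base that differs.
Rpl3 bases 42 to 72: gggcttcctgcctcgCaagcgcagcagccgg
Rpl3-ps1, aligned to 42 to 72: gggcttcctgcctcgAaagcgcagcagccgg
Rpl3 bases 771 to 801: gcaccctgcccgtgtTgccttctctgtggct
Rpl3-ps1, aligned to 771 to 801: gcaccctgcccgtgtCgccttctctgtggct

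Summed, the pair did not separate the groups. The sum was 364, 385 and 343 CPM under INT-747 and 356, 409 and 360 CPM under NR (sum of both genes). Its log2 fold change was -0.04 ± 0.09 with an edgeR adjusted p of 1. The pseudogene took 23.9%, 25.2% and 25.6% of the pair's counts in the 3 WT mice given INT-747 and 45.9% to 48.5% in the other 9 libraries, Tg26 mice under INT-747 included. Ribosomal protein genes as a list had a median log2 fold change of 0.04 over 30 genes. With the pair summed, a setting chosen after seeing the data, 1 gene passed in WT cortex, Akr1c18.

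**Figure D2:**
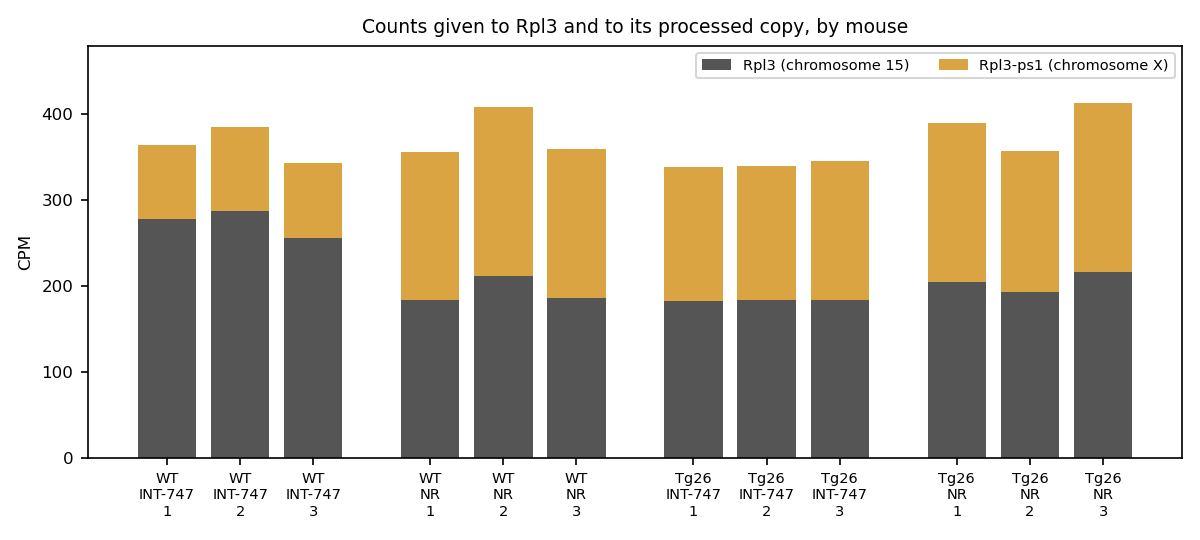
CPM given to Rpl3 (lower bar) and to its processed copy Rpl3-ps1 (upper bar) in each of the 12 mice. The bars are of like total height, 339 to 413 CPM, while the copy takes 23.9% to 25.6% of the pair in the 3 WT mice under INT-747 and 45.9% to 48.5% in the other 9.

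On chromosome 15, where Rpl3 lies, other genes separated the groups too, and the following were singled out after their values were seen. Smdt1 (chr15:82338959-82349091), a subunit of the mitochondrial calcium uniporter, read 50.7, 48 and 53.4 CPM under INT-747 and 35.3, 27.8 and 32.9 CPM under NR, above the 27.8 to 41.0 CPM of the other 9 libraries. Cbx7 (chr15:79915807-79971119), a Polycomb protein, read 35.8, 36.5 and 32.9 CPM under INT-747 and 28.4, 31.7 and 26.9 CPM under NR, also above the other 9, which reached 31.9 CPM. Tmem184b (chr15:79360684-79403569) read 25.5, 24.6 and 27.5 CPM under INT-747 and 41.8, 35.4 and 33.9 CPM under NR, below the other 9, whose lowest was 29.2 CPM. Josd1 (chr15:79674251-79687919), a deubiquitinase gene, read 33.6, 37 and 38.2 CPM under INT-747 and 53.1, 55.4 and 50.5 CPM under NR, with a log2 fold change of -0.55 ± 0.08. The other 9 libraries ranged from 38.2 to 55.4 CPM, so for Josd1 the WT INT-747 mice did not lie outside them. None of these 4 genes passed the test. In the 10 Mb of chromosome 15 from 80 to 90 Mb, which hold Rpl3 and Smdt1, 9 of 126 tested genes (7.14%) had the 3 WT INT-747 mice outside the range of the other 9 libraries. Over all genes the share was 0.885%, and this stretch ranked 2 among 236 of the same length with at least 20 tested genes. The groups did not overlap for 24.6% of its genes, against 12.9% of all. Rpl3 and Smdt1 were themselves among the 9 genes. The rank thus rests in part on values already seen and is no independent test. The stretch from 70 to 80 Mb, which holds Cbx7, Tmem184b and Josd1, ranked 13, with 6 of 145 tested genes (4.14%) outside that range. The labels state no genetic background, and the part of a shared chromosome segment in these values was not tested.

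Cholesterol is built from acetyl-CoA through mevalonate, isoprenoid units, squalene and lanosterol, by enzymes that SREBP2 induces together when cell sterol is low. Of 20 tested genes of the pathway 16 had a positive log2 fold change, against 48.7% of all genes. The groups did not overlap, with INT-747 higher, for 6 (6.65% of all genes) and, with INT-747 lower, for 1 (6.21%). The list's median was 0.14. It became 0.01 without NR replicate 2, 0.06 without INT-747 replicate 3 and 0.25 without INT-747 replicate 2, with 0.11 to 0.20 without any other single WT mouse. None of the 20 passed the adjusted threshold.

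Idi1, which isomerises isopentenyl diphosphate, had the largest log2 fold change of the pathway. It read 82, 59.7 and 68.8 CPM under INT-747 and 30.2, 23.2 and 26.3 CPM under NR. Each INT-747 mouse thus stood above every NR mouse, with a log2 fold change of 1.4 ± 0.20 (edgeR adjusted p of 0.0909). In Tg26 mice, where it rose, the log2 fold change was 1.5 ± 0.20 (edgeR adjusted p of 0.0159). Mvk, mevalonate kinase, which acts earlier in the pathway, read 10.3, 6.85 and 7.4 CPM under INT-747 and 5.24, 3.26 and 4.51 CPM under NR, without overlap and with a log2 fold change of 0.91 ± 0.28. Further along, the C4-demethylating oxidase Msmo1 read 19.5, 13.5 and 17.4 CPM under INT-747 and 11.8, 11.7 and 13.6 CPM under NR, where 1 mouse of each group overlapped. Tm7sf2, a sterol C14 reductase, read 14.1, 12.9 and 11.3 CPM under INT-747 and 11, 8.61 and 7.49 CPM under NR, with a log2 fold change of 0.50 ± 0.16. The edgeR adjusted p of Mvk, Msmo1 and Tm7sf2 was 0.759, 0.78 and 0.802.

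The promoters of Idi1 and Mvk are shown because these enzymes had the largest differences of the pathway. They are the 250 bases before the annotated start, from RefSeq (GRCm38.p6), read 5′ to 3′ along the gene, with CCAAT boxes on either strand in capitals (CCAAT or, on the other strand, ATTGG).
Idi1, chr13:8885356-8885605, plus strand: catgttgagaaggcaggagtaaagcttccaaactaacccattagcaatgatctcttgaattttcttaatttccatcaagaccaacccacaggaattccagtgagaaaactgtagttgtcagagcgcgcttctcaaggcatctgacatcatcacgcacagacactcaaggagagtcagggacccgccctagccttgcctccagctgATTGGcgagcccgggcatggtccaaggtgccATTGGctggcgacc
Mvk, chr5:114444019-114444268, plus strand: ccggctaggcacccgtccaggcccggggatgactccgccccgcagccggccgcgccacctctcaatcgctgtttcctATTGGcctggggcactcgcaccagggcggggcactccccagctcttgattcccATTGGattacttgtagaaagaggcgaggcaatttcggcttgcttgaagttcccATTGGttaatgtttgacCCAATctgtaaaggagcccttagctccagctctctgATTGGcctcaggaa
CCAAT, the core of the element bound by NF-Y, a partner of SREBP at sterol genes, was found on either strand in 14 of 18 promoters of 15 matched cholesterol synthesis genes (77.8%), against 33.8% of 32851 promoters. A sterol response element core, TCACNCCAC on either strand, was found in 1 of the 18, that of Hmgcs1 (5.56%), against 1.05% of all. Among the other lists searched, the CCAAT share ranged from 26.3% (FXR targets) to 66.7% (clock genes), with 57.9% for the PPAR-alpha list. The share with the sterol response element core ranged from 0% (clock genes, sterol uptake and export) to 10.5% (PPAR-alpha list), with 5.26% for FXR targets. A high share was thus not particular to the cholesterol synthesis list for either motif. These are letter matches in this window only.

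Genes of sterol uptake and export divided. Of 16 tested, 8 had a positive and 8 a negative log2 fold change, and the median was 0.01. The groups did not overlap for 3 with INT-747 higher (6.65% of all genes) and for 4 with INT-747 lower (6.21%). Levels are given here only for genes on the lower side. On the side of HDL and efflux, Scarb1, the HDL receptor, read 13.7, 13.3 and 12.1 CPM under INT-747 and 18.6, 20.9 and 16 CPM under NR. Abca1, the cholesterol exporter, read 15.6, 15.8 and 16.3 CPM under INT-747 and 30.7, 20.8 and 17.1 CPM under NR. Both were lower under INT-747 without overlap. For Abca1 NR replicate 1 was the highest mouse, and its log2 fold change of -0.52 became -0.26 without that mouse. In Tg26 mice the log2 fold change was -0.57 for Scarb1 and -1.12 for Abca1, the last of which fell (edgeR adjusted p of 0.0386).

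Fatty acid synthesis leaned the same way as cholesterol synthesis. Of 21 tested genes 14 had a positive log2 fold change, and for 3 the groups did not overlap on that side, against 6.65% of all genes. The median was 0.14, but 0.06 without INT-747 replicate 1, 0.09 without INT-747 replicate 2 and 0.08 without NR replicate 1. Scd1, the desaturase that makes oleate, had the largest value but a wide spread, 392, 262 and 57.3 CPM under INT-747 and 61.5, 32.7 and 22.9 CPM under NR, so that INT-747 replicate 3 stood below NR replicate 1. Its log2 fold change was 2.6 ± 0.85, against -1.57 ± 0.82 in Tg26 mice. The delta-5 and delta-6 desaturases of polyunsaturated fat did not overlap between the groups. Fads1 read 80.4, 59.4 and 54.3 CPM under INT-747 and 45.9, 46.9 and 50.3 CPM under NR. Fads2 read 236, 204 and 213 CPM under INT-747 and 201, 153 and 158 CPM under NR. Acly, which supplies cytosolic acetyl-CoA, read 243, 193 and 201 CPM under INT-747 and 185, 147 and 179 CPM under NR. None of the 21 passed (edgeR adjusted p of 0.818 for Scd1 and 0.93 for Acly).

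Fatty acid breakdown leaned the other way. Of 22 mitochondrial oxidation genes 20 had a negative log2 fold change, and for 7 of the 22 the groups did not overlap with INT-747 lower, against 6.21% of all genes. The median was -0.25, between -0.29 and -0.21 when any single WT library was left out, and -0.09 in Tg26 mice. Decr1, which reduces double bonds of unsaturated fatty acids, read 258, 286 and 254 CPM under INT-747 and 357, 459.6 and 377 CPM under NR, a log2 fold change of -0.58 ± 0.13. Eci1, which shifts such bonds, read 96.5, 122 and 78.2 CPM under INT-747 and 141, 213 and 149.6 CPM under NR, a log2 fold change of -0.76 ± 0.20. NR replicate 2 was the highest mouse for both, and neither gene overlapped between the groups. Acadl, a long-chain acyl-CoA dehydrogenase, read 301, 329 and 293 CPM under INT-747 and 393, 471 and 374 CPM under NR. Etfb, which passes the electrons on, read 308, 329 and 319 CPM under INT-747 and 398, 402 and 365 CPM under NR. None passed, with edgeR adjusted p of 0.413, 0.594, 0.675 and 0.831 in that order.

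Genes that PPAR-alpha controls and peroxisomal oxidation genes followed the same direction, 23 of 26 with a negative log2 fold change and 5 without overlap on the lower side (6.21% of all genes). Their median was -0.34 in WT mice and -0.65 in Tg26 mice. Over single left-out WT mice it ranged from -0.55, without NR replicate 1 or without INT-747 replicate 2, to -0.27 without NR replicate 2. Ucp2, an inner mitochondrial membrane carrier, read 236, 326 and 192 CPM under INT-747 and 458, 852 and 668 CPM under NR, the lowest NR mouse above the highest INT-747 mouse, with a log2 fold change of -1.39 ± 0.24 (edgeR adjusted p of 0.156). Vnn1, a pantetheinase, read 133, 156 and 92.6 CPM under INT-747 and 169, 286 and 238 CPM under NR. Acaa1a, the peroxisomal thiolase, read 164, 187 and 161 CPM under INT-747 and 232, 241 and 182 CPM under NR and overlapped, INT-747 replicate 2 standing above NR replicate 3. Lists of the mitochondrial core lay nearer 0. The TCA cycle list had a median of -0.02 over 18 genes and the nuclear respiratory chain list -0.03 over 38, with log2 fold changes of -0.14 to 0.08 in the latter.

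Among single genes named for the smallest p, at a mean log2 CPM over the WT mice of 1 or more, the higher side held several of low level under NR. Bcat1, the cytosolic branched-chain aminotransferase, read 57.1, 25.5 and 19 CPM under INT-747 and 3.95, 1.16 and 1.18 CPM under NR, a log2 fold change of 4.02 ± 0.57 (edgeR adjusted p of 0.103). The groups did not overlap, but INT-747 replicate 1 stood far above the other two INT-747 mice, as NR replicate 1 did among the NR mice. In Tg26 mice Bcat1 rose by 2.27 ± 0.49 (edgeR adjusted p of 0.0412). The list of branched-chain amino acid breakdown had a median of 0.06 over 21 genes. Fmod, the collagen-binding proteoglycan fibromodulin, read 6.05, 5.77 and 2.94 CPM under INT-747 and 1.29, 1.29 and 1.49 CPM under NR (log2 fold change 1.85 ± 0.27; edgeR adjusted p of 0.0909). In Tg26 mice its log2 fold change was 0.18 ± 0.26. Chrdl1, a secreted BMP antagonist, read 9.998, 5.43 and 3.77 CPM under INT-747 and 1.06, 0.625 and 1.02 CPM under NR.

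Gatm makes guanidinoacetate, the precursor of creatine, in the proximal tubule. It read 570.4, 651 and 508 CPM under INT-747 and 308, 184 and 275 CPM under NR, with no overlap and a log2 fold change of 1.17 ± 0.21 (edgeR adjusted p of 0.156). Slco4c1, an organic anion transporter of the proximal tubule, read 18.7, 12.3 and 9.05 CPM under INT-747 and 3.33, 2.19 and 2.78 CPM under NR, a log2 fold change of 2.27 ± 0.42. Npr2, the receptor of C-type natriuretic peptide, read 38.3, 35.4 and 34.5 CPM under INT-747 and 27.4, 27 and 25.8 CPM under NR. Wasf3, an actin regulator, read 7.71, 4.39 and 3.77 CPM under INT-747 and 1.86, 1.47 and 1.49 CPM under NR. Tgtp1, an interferon-inducible GTPase with a near-identical copy that makes its counts uncertain, read 7.13, 7.0 and 4.2 CPM under INT-747 and 2.13, 2.72 and 1.49 CPM under NR. None of these overlapped between the groups. Methig1 read 18.7, 10.1 and 6.62 CPM under INT-747 and 1.64, 1.61 and 1.41 CPM under NR. It overlaps Mettl7a2, another methyltransferase-like gene, on the same strand of chromosome 15, so that the split of reads is uncertain. Mettl7a2 read 99.8, 62 and 31.2 CPM under INT-747 and 5.95, 7.14 and 6.23 CPM under NR, and for both genes INT-747 replicate 1 was the highest mouse.

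On the lower side, Slc26a6, an apical chloride, oxalate and bicarbonate exchanger, read 10.9, 9.9 and 13.5 CPM under INT-747 and 22.9, 15.6 and 20.3 CPM under NR, and fell in Tg26 mice (edgeR adjusted p of 0.0427). Slc5a10, a sodium-coupled mannose and fructose carrier of the proximal tubule, read 189, 172 and 175 CPM under INT-747 and 239, 289 and 244 CPM under NR and fell in Tg26 mice too (edgeR adjusted p of 0.0287). The cytoskeletal actin gene Actg1 read 741, 819 and 979 CPM under INT-747 and 1593, 1272 and 1345 CPM under NR, with a log2 fold change of -0.73 ± 0.15 in WT and 0.00 ± 0.15 in Tg26 mice. Pfkfb3, which sets the glycolytic activator fructose 2,6-bisphosphate, read 24.8, 23.8 and 20.9 CPM under INT-747 and 39, 39.1 and 33.2 CPM under NR. The remaining genes of the 12, Gskip, Rusc1, Abhd4, Bag2 and Acat3, had log2 fold changes from -0.63 to -0.38, all without overlap. Acat3 encodes an acetyl-CoA acetyltransferase.

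Of the 12 genes on the higher side 10 had the same sign in Tg26 mice, and so did 10 of the 12 on the lower side, 83.3% of each, against 49.7% of all genes tested. Akr1c18, Idi1, Bcat1, Slc26a6 and Slc5a10 passed the adjusted threshold in Tg26 mice in the same direction. The Tg26 libraries did not enter the WT fold changes, but they shared the filter and the estimate of spread behind the p-values that ranked these genes. Within the INT-747 group, replicate 1 was the highest mouse for 9 of the 12 higher genes and replicate 3 the lowest for 10. Over the 1045 genes with INT-747 higher and no overlap, replicate 1 was the highest for 40.9%, and over all genes for 29.8%.

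**Figure D3:**
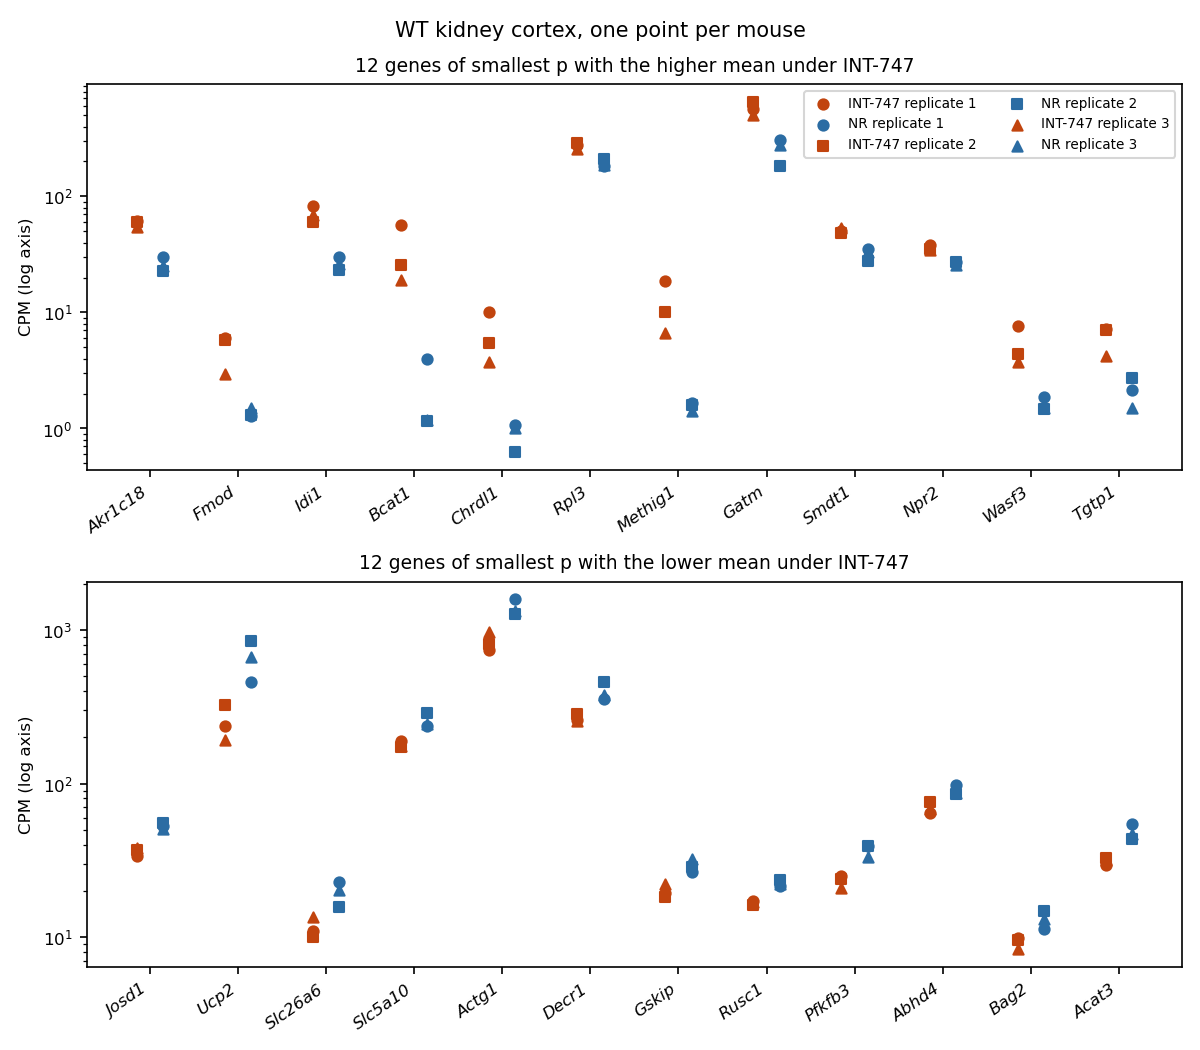
CPM on a log axis in each of the 6 WT mice for the 12 genes of smallest p on each side, with the colour giving the agent and the marker the replicate. The groups do not overlap for any gene shown, and the circle of INT-747 replicate 1 is the highest mouse for 9 of the 12 genes in the upper panel.

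No gene of the list for FXR, the receptor of INT-747, and its known targets passed the test. Nr1h4 read 227, 229.9 and 212 CPM under INT-747 and 217, 185 and 215 CPM under NR, with overlap. Nr0b2, the classical target, was barely detected, at 0.538, 0.595 and 0.433 CPM under INT-747 and 0.355, 0.089 and 0.431 CPM under NR, without overlap. The subunits of the basolateral bile acid exporter overlapped between the groups. Slc51a read 86.5, 79.4 and 115 CPM under INT-747 and 90.5, 62 and 88.1 CPM under NR. Slc51b read 15.9, 13.6 and 16.2 CPM under INT-747 and 11.3, 14.1 and 14.7 CPM under NR. Of 22 genes listed for FXR, 14 could be tested, with 8 positive and 6 negative log2 fold changes and a median of 0.07, and with groups that did not overlap for 3 on the higher and 2 on the lower side (6.65% and 6.21% of all genes). The other 8, among them Fgf15, Cyp7a1 and Abcb11, were left out by the filter on low counts. In Tg26 mice most of the 14 went the other way, with 4 positive and 10 negative log2 fold changes and a median of -0.27. Nr1h4 and Slc51a were among those that rose there, by 0.76 ± 0.16 and 1.0 ± 0.24 (edgeR adjusted p of 0.0332 and 0.0436). Fgfr4, the receptor of FGF15, read 80.6, 63.3 and 81.6 CPM under INT-747 and 66.5, 54.7 and 64 CPM under NR, and rose in Tg26 mice (edgeR adjusted p of 0.0287).

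None of the enzymes that use NR or other NAD precursors passed either. The riboside kinase Nmrk1 read 47.6, 66.9 and 54.3 CPM under INT-747 and 50.1, 40.0 and 77.3 CPM under NR. Nampt, which recycles nicotinamide, read 295, 287 and 253 CPM under INT-747 and 249, 305 and 281 CPM under NR. Both overlapped. Over the 15 gene IDs tested for NAD synthesis from riboside, nicotinamide and nicotinate, 0 had groups without overlap, against 12.9% of all genes, and the median was -0.06. One of 2 IDs with the symbol Nnt, the low one, read 0, 0.744 and 0.39 CPM under INT-747 and 0, 43.3 and 17.2 CPM under NR. It overlapped at NR replicate 1 (edgeR adjusted p of 0.831), varied from 2.51 to 81.3 CPM in Tg26 mice, and is not read further. In synthesis from tryptophan, Ido2, which opens the ring, read 27.4, 24.1 and 23.6 CPM under INT-747 and 18.9, 11.7 and 16.1 CPM under NR, without overlap, a log2 fold change of 0.68 ± 0.19 (edgeR adjusted p of 0.613). Acmsd, which diverts the pathway from NAD, read 91.6, 95.4 and 118 CPM under INT-747 and 92.3, 66 and 58.5 CPM under NR and overlapped at NR replicate 1. Among NAD consumers Sirt3, the mitochondrial deacetylase, read 112, 114 and 105 CPM under INT-747 and 123, 127 and 126 CPM under NR, lower under INT-747 without overlap. The sirtuins, PARPs and other consumers had a median of 0.05 over 12 genes.

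Markers of the thick ascending limb, the segment that reabsorbs salt without water, lay on one side. All 15 tested markers had a positive log2 fold change, against 48.7% of all genes, with 6 without overlap (6.65% of all genes on that side) and 0 past the adjusted threshold, with a median of 0.34 and a range over single left-out WT libraries of 0.28 to 0.51, the highest without INT-747 replicate 3. In bulk tissue more cells of a type and more RNA per cell cannot be told apart. Slc12a1, the sodium, potassium and chloride cotransporter, read 668, 522 and 362 CPM under INT-747 and 281, 286 and 254 CPM under NR, a log2 fold change of 0.92 ± 0.28. Umod, the gene of uromodulin, read 3049, 2588 and 2385 CPM under INT-747 and 1548, 1752 and 1722 CPM under NR. The transcription factor gene Irx1 read 9.37, 6.48 and 5.28 CPM under INT-747 and 3.51, 2.9 and 3.57 CPM under NR. All 3 genes were without overlap, as was the prostaglandin receptor gene Ptger3 at 18.3, 15.9 and 11.6 CPM under INT-747 and 6.88, 9.55 and 8.43 CPM under NR. Again INT-747 replicate 1 was the highest mouse and replicate 3 the lowest for each of the 4, and the edgeR adjusted p was 0.495 for Irx1 and 0.802 for Umod. The list's median was -0.15 in Tg26 mice.

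Deeper kidney was read from 11 inner medulla and osmotic genes, of which 8 were tested, 8 with a positive log2 fold change. Their summed level was 864 to 991 CPM under INT-747 and 787 to 817 CPM under NR, without overlap. The largest part of that sum, Slc6a6, overlapped at 605, 537 and 523 CPM under INT-747 and 460, 481 and 530 CPM under NR. Singly, 1 of the 8, Slc5a3, had groups without overlap (12.5%, against 12.9% of all genes). Slc14a2, the defining urea transporter of the inner medulla, was not tested. It had 1 to 5 counts per library under INT-747 and 0 or 1 under NR, and the urothelial gene Upk3a 7 to 14 and 0 to 4. Slc6a12, also not tested, had 6, 2 and 1 counts under INT-747 and 1, 4 and 1 under NR, with overlap. Slc5a3, the osmotically induced myo-inositol carrier, read 102, 100.2 and 72.1 CPM under INT-747 and 53.7, 58.8 and 48 CPM under NR. The part of deeper tissue in the thick ascending limb values was not tested. Proximal tubule markers had a median of -0.04, 0.07 without NR replicate 1, and a mean of 0.02 over 20 genes. Intercalated cell markers had a median of -0.09 over 13.

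Principal cell markers of the collecting duct lay on both sides, with 6 on each side of 0 and a median of 0.00. The water channel genes split. Aqp4, on the basolateral side, read 51.2, 28.4 and 9.83 CPM under INT-747 and 2.62, 4.24 and 4.0 CPM under NR, a log2 fold change of 3.04 ± 0.91 (edgeR adjusted p of 0.78). Aqp2, the vasopressin-regulated apical channel, read 47.3, 49.7 and 47.3 CPM under INT-747 and 64.8, 65.1 and 61.3 CPM under NR. Aqp3, another basolateral channel, read 82.7, 84.5 and 77.7 CPM under INT-747 and 91.9, 104 and 115 CPM under NR. Both were lower under INT-747 without overlap. In Tg26 mice Aqp2 fell (edgeR adjusted p of 0.0362), and the log2 fold change of Aqp4 was -0.73 ± 0.85.

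Of 12 markers of the distal convoluted and connecting tubule 9 had a positive log2 fold change. The groups did not overlap for 4 on the higher side, against 6.65% of all genes, and for 1 on the lower side, against 6.21%. The median was 0.18, and 0.09 without NR replicate 1 or without INT-747 replicate 2. The gene on the lower side was the calcium buffer Pvalb, which read 22.4, 26.9 and 26.3 CPM under INT-747 and 41, 46.5 and 38.1 CPM under NR. Slc8a1, the sodium and calcium exchanger, read 90.2, 111 and 111 CPM under INT-747 and 32.3, 89.2 and 85.2 CPM under NR, with NR replicate 1 far below the rest. S100g, another calcium-binding protein, read 151, 181 and 143 CPM under INT-747 and 104, 141 and 111 CPM under NR. Stk39, a kinase that activates the salt cotransporters, read 25.6, 23.8 and 24.3 CPM under INT-747 and 20.8, 18.7 and 20.9 CPM under NR. These 3 were higher under INT-747 without overlap, and none of the 12 passed.

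Smooth muscle and pericyte markers were also mostly higher under INT-747. Of 12 tested genes 10 had a positive log2 fold change, 5 without overlap (6.65% of all genes on that side), and the median was 0.51, with 0.44 to 0.63 over single left-out WT libraries and -0.44 in Tg26 mice. Rgs5, a pericyte marker, read 23.8, 25.9 and 22.6 CPM under INT-747 and 12.2, 17.9 and 13.8 CPM under NR. The contractile gene Myl9 read 18.5, 22.4 and 22.3 CPM under INT-747 and 11, 13 and 15.6 CPM under NR. Smooth muscle actin, Acta2, read 14.4, 26 and 21.6 CPM under INT-747 and 8.08, 12.8 and 14.6 CPM under NR, with overlap in 1 mouse of each group. Renin, Ren1, overlapped at 129, 158 and 193 CPM under INT-747 and 111, 209 and 260.2 CPM under NR, and none of the 12 passed. Fibroblast and matrix genes had a median of 0.18 over 30 genes in WT and -0.63 in Tg26 mice, and tubular injury markers 0.02 over 16, with 1 of 16 without overlap, against 12.9% of all genes. Over single left-out WT mice the fibroblast and matrix median ranged from 0.11 to 0.33, the highest without NR replicate 1, and that of tubular injury from -0.11 without NR replicate 1 to 0.22 without NR replicate 3.

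**Figure D4:**
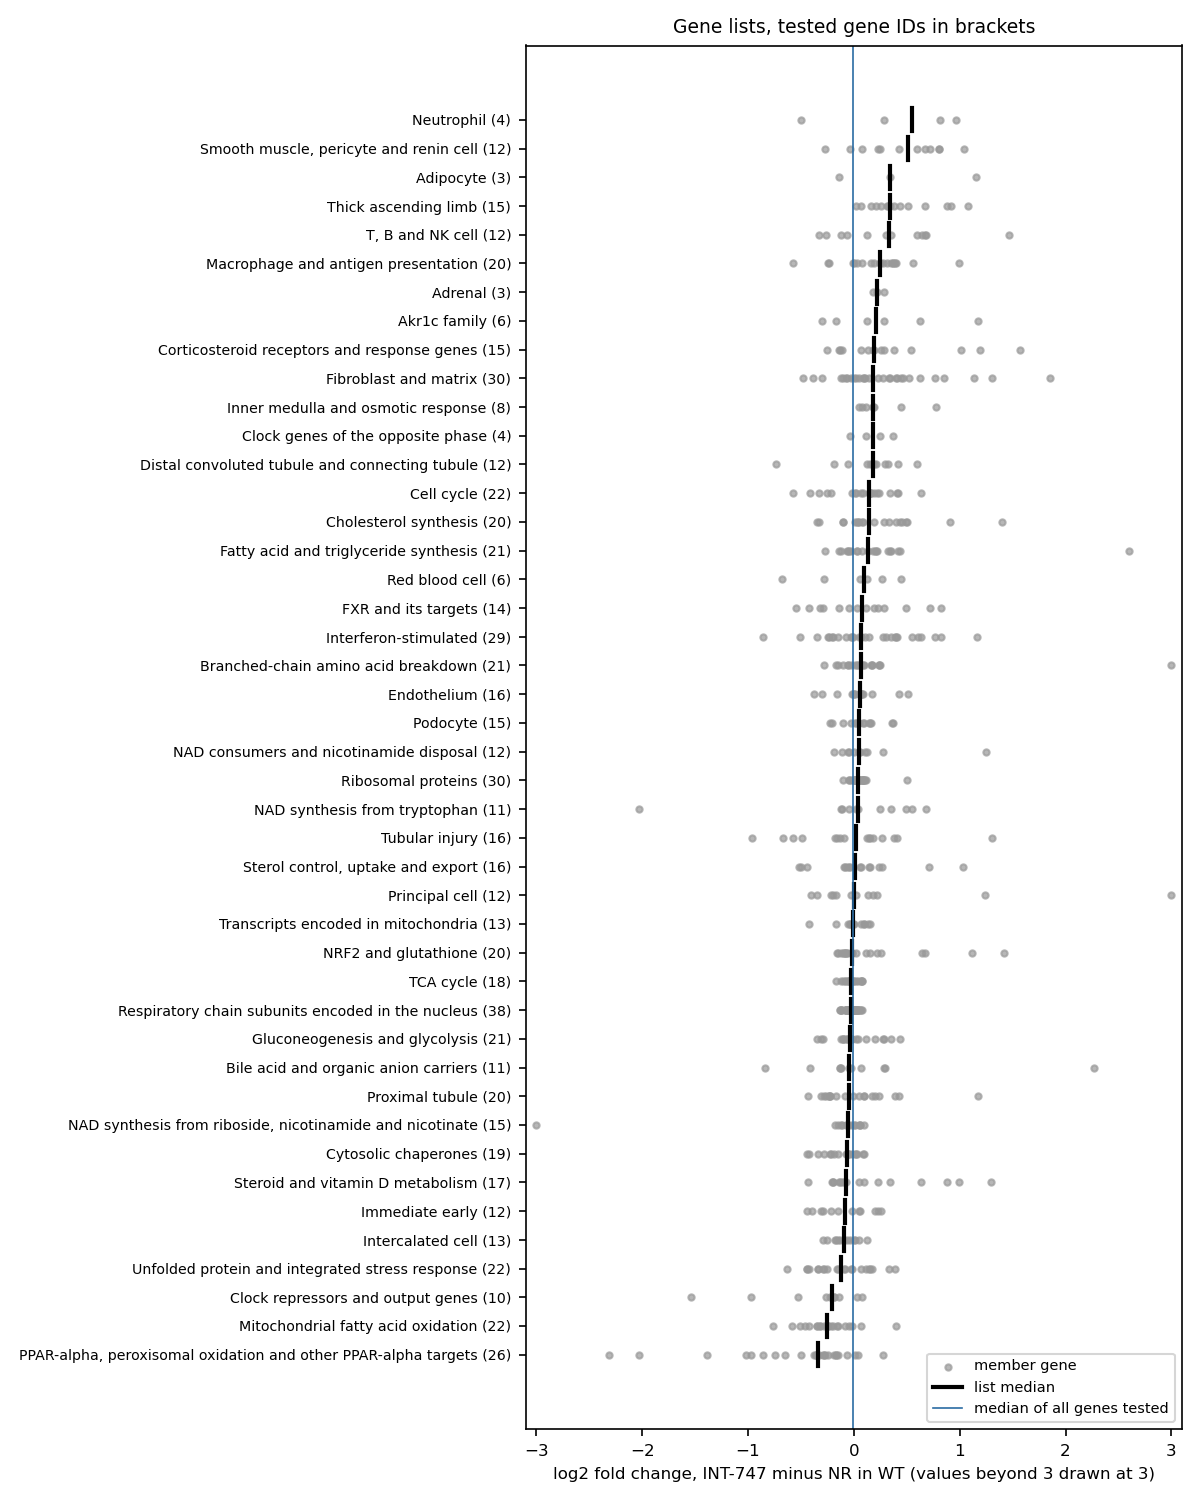
Log2 fold changes (INT-747 minus NR in WT mice) of the tested members of each list as points, the list median as a black bar and the median of all genes as a line, with values beyond 3 drawn at 3. The smooth muscle and thick ascending limb medians, 0.51 and 0.34, lie right of the line, and those of mitochondrial oxidation and PPAR-alpha genes, -0.25 and -0.34, left of it.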

How the data were processed

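Stranded mRNA libraries from outer kidney cortex were processed by the authors with bcl2fastq 2.17, cutadapt 1.18, STAR 2.7.0f and RSEM 1.3.1 on build mm10, per the submitters' processing notes, with order and settings not given in the sources used here. The deposited values are RSEM expected counts per gene, all whole numbers, for 55450 gene IDs. All IDs matched GENCODE release 21, which gave coordinates.

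edgeR 4.0.16 (R 4.3.3) kept 15708 genes by filterByExpr on the 4 groups, scaled by TMM and fitted all 12 libraries with a mean per group and robust quasi-likelihood estimation, leaving 8 residual degrees of freedom. Contrasts were INT-747 minus NR in WT, in Tg26, and their difference, with Benjamini-Hochberg adjustment over all genes and a threshold of 0.05. SE is that of the log2 fold change. The code of the fit was run on simulated counts with the same spread for every gene, which cannot show how the fit performs on these data. Alternatives used DESeq2 1.42.0, limma 3.58.1, other scalings and filters, the WT libraries alone, a replicate block, a clock covariate and each library left out.

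Named were called genes, the 12 of smallest p per side (predicted genes and pseudogenes left out), up to 4 of smallest p per list, the drug targets and clock genes, and the 6 of smallest p for the difference; some genes that this rule covers are not reported here. The members, lists and rules were chosen with earlier results of these data known. Expected counts limit precision by counting error and by reads shared among copies. Replicates are separate libraries per the labels. The p-values set the difference between groups against the spread within groups, estimated from all 12 libraries, those of Tg26 mice included.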

Additional observations from a re-analysis of the deposited data

How the results depend on the processing

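Akr1c18 passed under all 23 alternatives and Rpl3-ps1 under the 22 in which it was a gene of its own. The number of genes passing in WT cortex was 2, and 3 with no filter, without robust estimation and with the 6 WT libraries alone, 4 with library totals as the only scaling, 6 with the clock score as a covariate, 61 with DESeq2 and 1 with Rpl3 and its copy summed, an alternative chosen after seeing the data. It ranged from 2 to 5 over single left-out libraries: 4 without WT INT-747 replicate 3, 3 without Tg26 NR replicate 2 and 5 without Tg26 NR replicate 3. No label pairs mice by replicate number. Correlations of deviations from the group mean were -0.000775, 0.207 and 0.037 for same-numbered WT mice and -0.181 to 0.128 for differently numbered ones. With 3 mice per group these values cannot show whether mice were paired. The replicate block gave 2 genes. For the difference between WT and Tg26, 0 genes passed, and 247 with DESeq2, from 0 to 174 over single left-out libraries, with 1 without WT INT-747 replicate 3 and 174 without Tg26 NR replicate 2. The cause of these changes was not tested.

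All 85 genes whose log2 fold changes were followed across the alternatives kept their sign. Most were picked for a small p in these same libraries, so a kept sign was likely from the start and is no independent support. Dbp, Arntl, Nr1h4, Nr0b2, Slc51a, Slc51b, Nmrk1 and Nampt were not among the genes followed. Idi1 passed under 6 alternatives, among them the 6 WT libraries alone, Fmod and Bcat1 under 3. The medians of the cholesterol synthesis, fatty acid oxidation, PPAR-alpha, thick ascending limb and smooth muscle lists kept their sign under all 23. Those of several lists near 0 did not, among them sterol control, steroid and vitamin D, endothelium, proximal tubule and principal cell. The same held for tubular injury, nuclear respiratory chain, TCA cycle, and NAD synthesis from riboside, nicotinamide and nicotinate. Some lists further from 0 changed sign too: neutrophil (0.55, lowest -0.67), adrenal (0.22, lowest -0.16), cell cycle (0.15, lowest -0.03) and both clock lists. The FXR (0.07) and gluconeogenesis and glycolysis (-0.04) medians, though near 0, kept theirs. Genes of a few counts per library, such as Nr0b2, are limited by counting error.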

Other observations

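Steroid and vitamin D genes held another pair of separated values. Cyp27b1, which makes active vitamin D in the proximal tubule, read 11, 16.9 and 12.1 CPM under INT-747 and 8.08, 2.32 and 5.84 CPM under NR. Cyp24a1, which breaks it down, read 123, 234 and 112 CPM under INT-747 and 86.7, 107 and 41.8 CPM under NR. Neither overlapped between the groups and neither passed (edgeR adjusted p of 0.9 and 1). The list of 17 genes had a median of -0.08, which ranged from -0.10 to 0.21 over single left-out WT mice, and a mean of 0.17. Among glucocorticoid response genes Fkbp5, a chaperone of the receptor, read 702, 715 and 667 CPM under INT-747 and 831, 886 and 774 CPM under NR. Fam107a read 76.9, 63.7 and 40.0 CPM under INT-747 and 24.3, 27.1 and 27.8 CPM under NR, so that these 2 lay on opposite sides, both without overlap. Of 15 corticosteroid receptor and response genes 11 had a positive and 4 a negative log2 fold change, with a median of 0.19, and none passed. Hsd17b2, which oxidises estradiol and testosterone, read 11.9, 13.2 and 13.7 CPM under INT-747 and 7.19, 6.74 and 7.21 CPM under NR, higher under INT-747 without overlap.

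Endothelial genes divided too. Kdr, the VEGF receptor, read 107, 80.0 and 77.5 CPM under INT-747 and 77.4, 64.1 and 56 CPM under NR. The arterial factor gene Sox17 read 4.04, 5.02 and 3.85 CPM under INT-747 and 2.66, 3.17 and 3.21 CPM under NR. Both were higher under INT-747 without overlap, while Sox18 was lower at 5.96, 7.14 and 7.14 CPM under INT-747 and 7.9, 9.24 and 9.21 CPM under NR. The median over 16 endothelial genes was 0.05. Csf1r, the receptor that keeps macrophages alive, read 65.6, 44.2 and 78.9 CPM under INT-747 and 45, 19.7 and 30.1 CPM under NR, with overlap, and macrophage and antigen presentation genes had a median of 0.25 over 20. Interferon-stimulated genes had a median of 0.07 over 29, with Rtp4 at 1.39, 1.49 and 2.12 CPM under INT-747 and 1.06, 0.848 and 0.901 CPM under NR.

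In glucose metabolism Pkm, pyruvate kinase, read 202, 209 and 187 CPM under INT-747 and 141, 157 and 146 CPM under NR. Pck2, the mitochondrial form of PEPCK, read 13, 14.8 and 13.4 CPM under INT-747 and 18.3, 17.2 and 15.7 CPM under NR. Pcx, pyruvate carboxylase, read 1376, 1175 and 1351 CPM under INT-747 and 1744, 1518 and 1719.8 CPM under NR. Pkm stood higher and the other 2 lower under INT-747, all without overlap. Of the 13 transcripts encoded in mitochondria mt-Nd2, a complex I subunit, read 4816, 5222 and 5612 CPM under INT-747 and 6789, 6861 and 7356 CPM under NR, lower without overlap, while the list's median was 0.00.

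The smallest p for a difference in response between WT and Tg26 mice belonged to Farsb, Cbx7, Chordc1, Josd1, Them4 and Mtus1, none past the adjusted threshold. Farsb, a subunit of phenylalanyl-tRNA synthetase, had a log2 fold change of -0.51 ± 0.13 in WT and 0.71 ± 0.13 in Tg26 mice, a difference of -1.22 ± 0.19 (edgeR adjusted p of 0.123). Chordc1, a cochaperone of HSP90, stood at -0.19 ± 0.12 and 0.87 ± 0.12. Over all genes the log2 fold changes of the 2 genotypes, which share no library, correlated at 0.145 across 15708 genes, which are not independent replicates.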
